A study of Homo sapiens with 6 samples.

Results

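Translation initiation and elongation factors are the soluble proteins that bring an mRNA and the ribosome together and carry the ribosome along its codons. Their genes were taken as every row of the expression table whose symbol begins with EIF1 to EIF6 or with EEF1 or EEF2, except the eIF2α kinases (symbols beginning with EIF2AK). This gave 64 of 16250 genes, and 62 of them were among the 12127 genes tested. EIF3CL and EIF1AY did not pass the filter on low values, which asked for an FPKM (fragment counts corrected for the length of the transcript and for library total) of at least 0.5 in at least 3 libraries.

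RNA was sequenced from HK-2 cells, an immortalized line of human renal proximal tubule epithelial cells. All cells carried the receptor NK-1R on a lentiviral vector with puromycin selection and formed a stably overexpressing line. The SP group received 20 µM substance P (SP), the neuropeptide ligand of NK-1R, and the control group received PBS, each for 48 h and with 3 libraries per group. No source used here says whether the libraries of a group came from separate cultures, so p-values refer to the spread among the 6 libraries, which may be technical.

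In initiation, eIF2 carries the initiator tRNA, eIF3 organizes the small ribosomal subunit, eIF4F binds the cap of the mRNA, and eIF1 and eIF5 help to select the start codon. In elongation, eEF1A brings aminoacyl-tRNA, eEF1B reloads it with GTP, and eEF2 moves the ribosome by a codon. Phosphorylation of eIF2α and of eEF2 are known brakes on these steps, also in injured tubule cells. The eIF4E-binding proteins act as a brake when they are not phosphorylated. None of these states is visible in transcript levels.

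The sum of FPKM per library was 760889, 716334 and 672807 in control libraries 1 to 3. It was 686345, 681075 and 688406 in SP libraries 1 to 3, and the number of reads behind the values is unknown. Libraries of a group correlated with r = 0.990 to 0.996 across genes. TACR1, the gene of NK-1R, was at 15.7, 25.8 and 33.0 FPKM in control libraries and at 78.5, 123 and 141 in SP libraries, so the groups also differed in receptor transcript. Among the proximal tubule markers, GGT1 and DPP4 were expressed in every library (45.4 to 64.5 and 9.44 to 16.1 FPKM), AQP1 rose from a mean of 0.333 to 0.71 (adjusted p = 0.0412 from limma), and CUBN, SLC34A1, SLC5A2, ANPEP and MME stayed at or below 0.43. The epithelial markers KRT8, KRT18, KRT19 and EPCAM were expressed, KRT18 rose from 301 to 360.4 (adjusted p = 0.0316), and CDH1 did not exceed 0.07. Of 9 markers of other cells, PTPRC, VWF, CDH5, PDGFRB and DCN did not exceed 0.18. PECAM1 had a mean of 0.0333 in control and 0.447 in SP libraries and was not tested, CD14 was at 1.45 to 4.09, and COL1A1 fell from 4.6 to 2.64 (adjusted p = 0.00727). The sum of all 9 was 118 to 122 in control and 112 to 118 in SP libraries, most of it CD68 (106 to 114). The part of these markers in the values of the factors was not tested. In a bulk sample, a change in the share of cells and a change in RNA per cell cannot be told apart.

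Several mRNAs of this machinery are known to begin with a C followed by a run of pyrimidines, the 5′ terminal oligopyrimidine (TOP) start that ribosomal protein mRNAs also carry. RefSeq promoter sequences of GRCh38.p14 were matched for 49 of the 62 genes tested. The windows below hold 30 bases before the annotated start and 20 bases from it, 5′ to 3′ on the strand of the gene. They are shown because the genes described below differ in this feature: the first 6 have such a start and the last 3 do not. Capitals mark the pyrimidine run from the start base and, in EIF4B, a CACGTG E-box upstream of it.
EEF1A1: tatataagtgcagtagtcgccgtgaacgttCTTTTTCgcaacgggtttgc
EEF2: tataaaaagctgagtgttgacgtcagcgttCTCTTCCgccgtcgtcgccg
EIF2S3: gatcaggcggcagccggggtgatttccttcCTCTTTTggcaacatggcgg
EIF2D: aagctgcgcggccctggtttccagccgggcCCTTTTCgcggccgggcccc
EIF3K: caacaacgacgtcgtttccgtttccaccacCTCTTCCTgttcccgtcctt
EIF4B: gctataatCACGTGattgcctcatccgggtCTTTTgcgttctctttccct
EIF1: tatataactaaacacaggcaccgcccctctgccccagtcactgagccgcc
EIF2B1: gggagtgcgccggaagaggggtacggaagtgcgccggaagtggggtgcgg
EIF6: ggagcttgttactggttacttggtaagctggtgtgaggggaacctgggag

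The windows lie at chr6:73521013-73521062 (EEF1A1, minus strand), chr19:3985444-3985493 (EEF2, minus), chrX:24054926-24054975 (EIF2S3, plus), chr1:206612446-206612495 (EIF2D, minus), chr19:38619158-38619207 (EIF3K, plus), chr12:53006426-53006475 (EIF4B, plus), chr17:41688855-41688904 (EIF1, plus), chr12:123633667-123633716 (EIF2B1, minus) and chr20:35284698-35284747 (EIF6, minus). A C at the start base followed by at least 4 pyrimidines was found in 11 of the 49 promoters (22.4%), in 44 of 67 ribosomal protein promoters (65.7%) and in 5.54% of 9823 promoters of genes tested. The other 5 were EIF2A, EIF3D, EIF3F, EIF3M and EIF4A2. CACGTG, which reads the same on both strands, stood in 13 of the 49 windows of 250 bases before to 50 after the start (26.5%) and in 10.4% of all promoters. TGACGTCA was found in 1 (2.04%, EEF2) against 3.32% of all, TGANTCA in 2 (4.08%, EIF3J and EIF5AL1) against 4.47%, and TGATGNAA in none against 1.64%, on either strand. These matches describe the letters only.

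With SP, 2 of the 62 genes rose and 10 fell at an adjusted p under 0.05 (limma on log2(FPKM + 1), Benjamini-Hochberg over all genes tested). EEF1AKMT4, a lysine methyltransferase of eEF1A, and EIF1 rose. EEF1A2, EIF6, EIF2B1, EIF3K, EIF2S3, EIF4E2, EIF2D, EEF1B2, EIF3E and EIF3H fell, by 13.2% to 27.2% of the control mean. The share called, 19.4%, was close to the 20.6% of all genes tested. Genes that rose made up 3.23% of these factors and 8.57% of all genes, and genes that fell made up 16.1% and 12%. By limma, no factor passed both thresholds of the study, which also ask for a fold change beyond 1 on the log2 scale in either direction, whereas 1.59% of all genes did. The median log2 fold change was −0.10 over the 62 genes and −0.05 over all genes tested. Of the 62 genes, 47 were below 0 (75.8%), and of all genes tested 58.7%. The 47 became 35 with equal FPKM totals, 36 with median-ratio scaling and 40 with quantile normalization, which also scale the libraries to each other. Of all 12127 genes tested, 7120 were below 0 in the deposited scaling and 5971, 6178 and 6818 under these 3 scalings in turn.

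All SP libraries were below all control libraries for 23 of the 62 genes (37.1%) and for 26.1% of all genes tested. All SP libraries were above all control libraries for 6 (9.68%) and for 15.9% of all. The counts of calls depended on single libraries. Without SP replicate 2, 0 rose and 0 fell, and without control replicate 2, 0 and 1. The counts were 1 and 3 without control replicate 1, and 2 and 3 without SP replicate 1 or SP replicate 3. Without control replicate 3 they were 3 and 9. The share called over all genes tested also changed, from 20.6% to 7.73% without SP replicate 2 and 9.77% without control replicate 2. It was 12.5% to 20.8% in the other fits that left out 1 library. The counts of the factors also moved with the scaling between libraries. They were 4 and 2 with median-ratio scaling, 4 and 6 with quantile normalization and 2 and 6 with equal FPKM totals. The counts over all genes tested moved as well, from 1039 that rose and 1457 that fell. They were 1281 and 912 with median-ratio scaling, 1181 and 1301 with quantile normalization and 1044 and 750 with equal FPKM totals. Each of the 12 genes kept its direction in all 14 alternatives, but only the 3 scalings could have changed it. Control and SP libraries do not overlap for these genes, so the other alternatives could not turn the sign. EIF2B1 passed the test in 13 of the 14, EIF3K and EEF1AKMT4 in 11, and the others in 3 to 8.

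**Figure D1:**
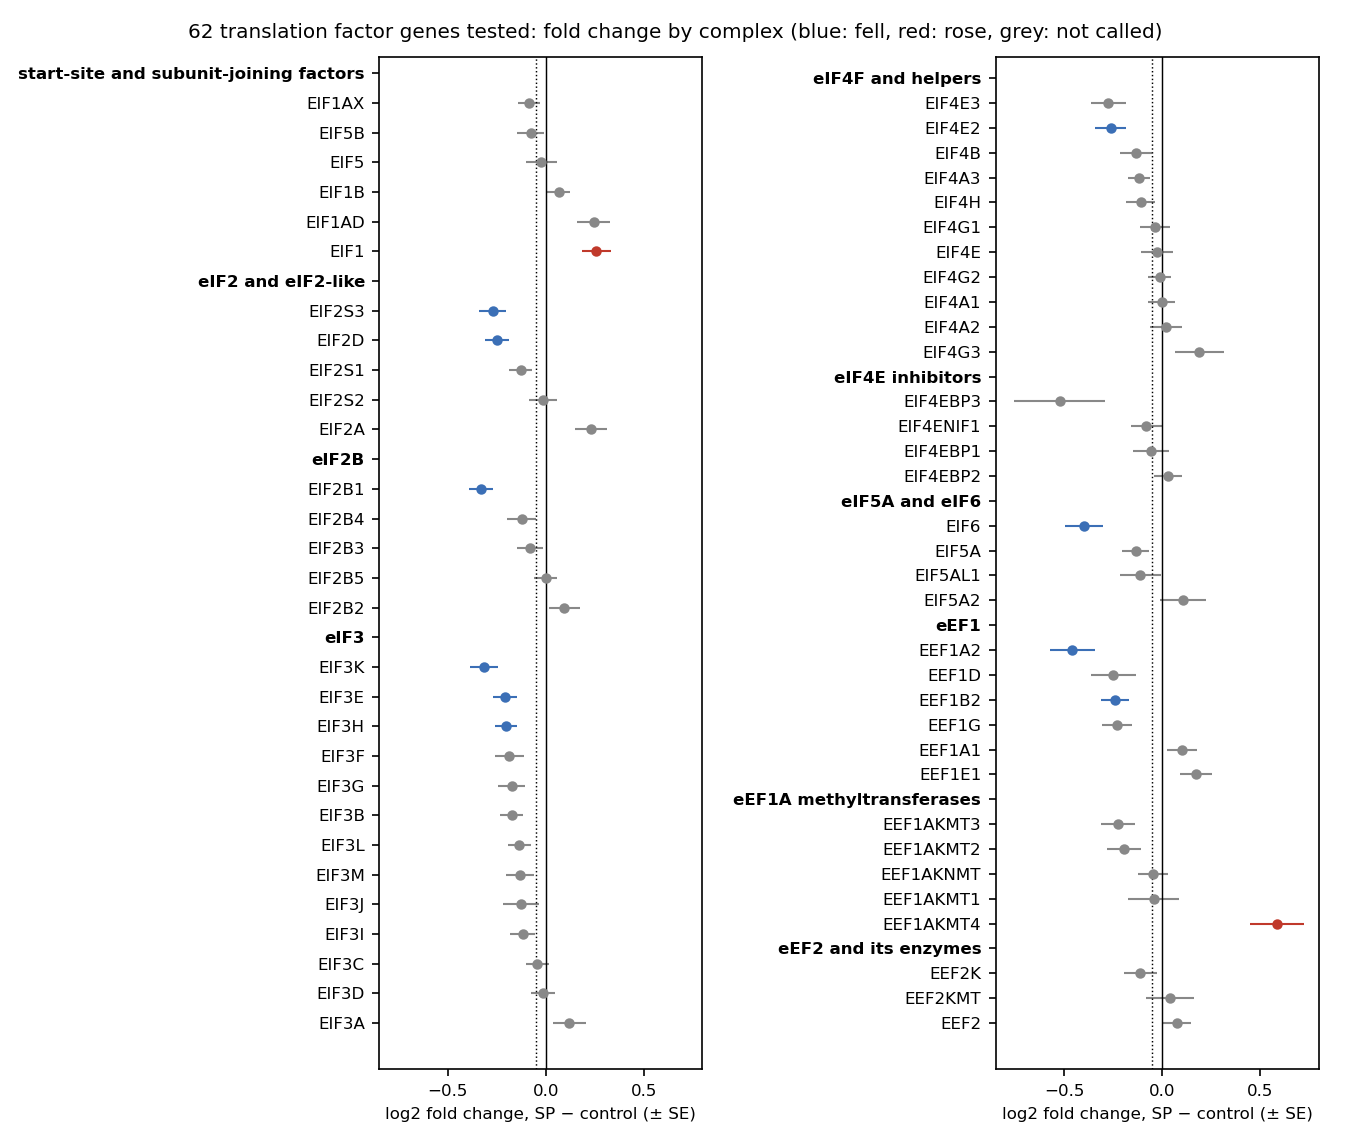
Fold change on the log2(FPKM + 1) scale, SP minus control, of the 62 translation factor genes tested, with its standard error from limma, by complex. Blue genes fell, red genes rose and grey genes did neither at an adjusted p under 0.05. The solid line is 0 and the dotted line the median of all genes tested (−0.05). Of the 13 eIF3 subunits, 12 lie left of 0 (10 with equal totals or median-ratio scaling).

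**Figure D2:**
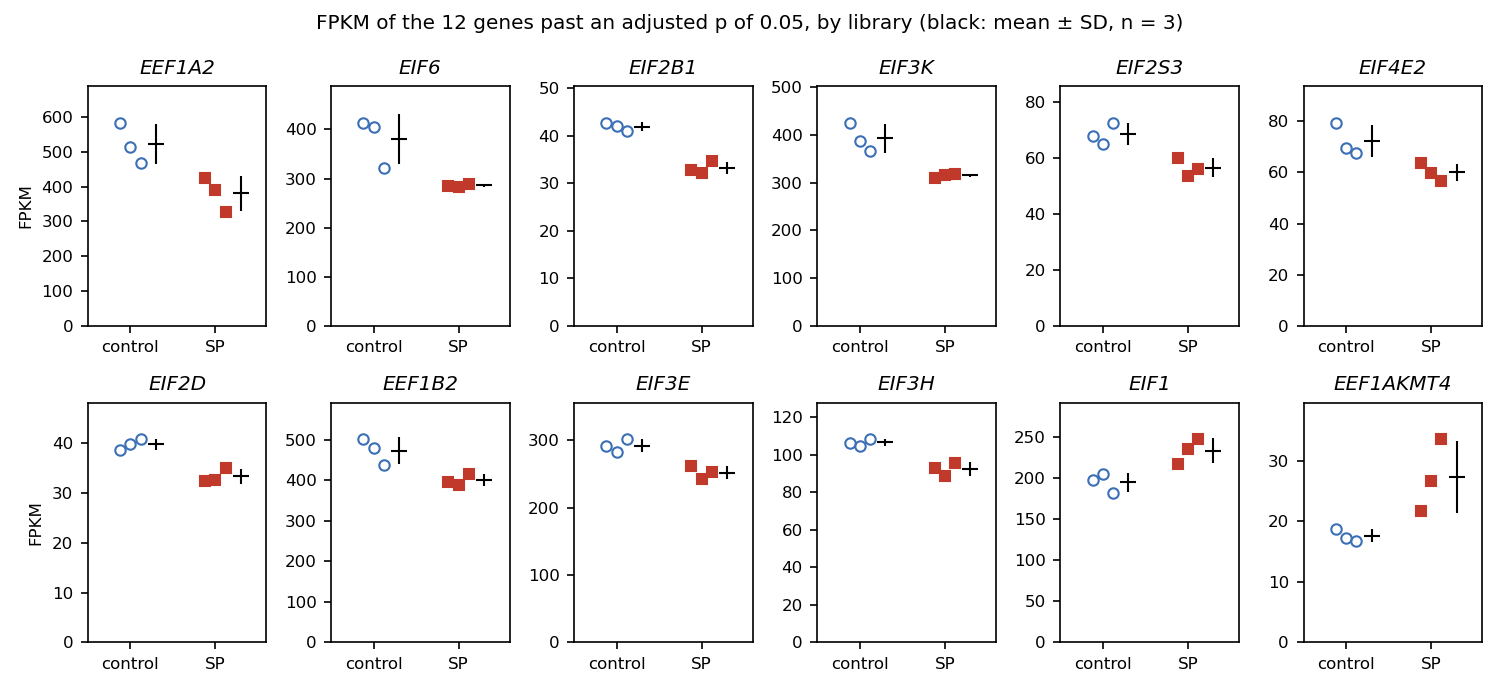
FPKM of the 12 genes past an adjusted p of 0.05 in each library (open circles control, filled squares SP), with the mean and SD over 3 libraries in black. Each axis starts at 0. Control and SP libraries do not overlap in any panel, but the genes were chosen by the test on these same libraries. Of all genes tested, 26.1% had all SP libraries below all control libraries and 15.9% had all above.

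The factors that choose the start codon held 1 of the 2 genes that rose. EIF1, which keeps the scanning ribosome open until a start codon is reached, was at 197, 205 and 182 FPKM in control libraries 1 to 3 and at 217, 236 and 247 in SP libraries 1 to 3. Every SP library was above every control library. The log2 fold change of EIF1 was 0.26 (SE 0.07, adjusted p = 0.0422 from limma), and with the replicate number as a block the adjusted p was 0.0509. EIF1 (gene ID 10209) lies on GRCh38 at chr17:41688885-41692668 and overlaps no exon of another protein-coding gene. The call was lost when any library other than SP replicate 1 was left out, without a filter on low values (adjusted p = 0.0640) and without the variance trend (0.0638). The FPKM of its paralog EIF1B was 0.135 ± 0.009 times that of EIF1 in control libraries (SD, n = 3).

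None of the other genes placed in this group passed the test. EIF1AD was at 9.52, 10.1 and 9.89 FPKM in control and at 12.2, 12.8 and 10.6 in SP libraries, which did not overlap (log2 fold change 0.24, adjusted p = 0.0714). EIF1AX, EIF1B, EIF5 and EIF5B, the GTPase that joins the subunits, had log2 fold changes between −0.09 and 0.07. The median over the 6 genes was 0.02 (−0.00062 without control replicate 1), and 3 of them were below 0.

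eIF2, the GTPase that delivers the initiator tRNA, has 3 subunits. EIF2S3 encodes the γ subunit, which binds GTP, and was at 67.8, 64.9 and 72.5 FPKM in control and at 60.0, 53.4 and 56.0 in SP libraries. The groups did not overlap, and EIF2S3 fell by 0.27 on the log2 scale (SE 0.07, adjusted p = 0.0304 from limma). EIF2S1, the α subunit that the stress kinases phosphorylate, was at 33.8, 36.2 and 34.2 in control and at 31.9, 31.4 and 31.8 in SP libraries. These did not overlap either, but the difference of −0.13 did not pass the test (adjusted p = 0.158). EIF2S2, the β subunit and the most abundant of the 3, ranged from 175 to 196 FPKM over the 6 libraries and overlapped between groups (adjusted p = 0.894).

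EIF2D and EIF2A encode factors that can place a tRNA on the ribosome without eIF2. EIF2D was at 38.7, 39.8 and 40.8 FPKM in control and at 32.5, 32.5 and 35.0 in SP libraries, and fell by 0.25 on the log2 scale (SE 0.06, adjusted p = 0.0269 from limma). EIF2A was at 30.5, 32.4 and 35.2 in control and at 36.7, 37.1 and 41.9 in SP libraries, the opposite order. Its log2 fold change of 0.23 had an adjusted p of 0.0732, and of 0.0390 with the replicate block. On GRCh38, EIF2S3 (gene ID 1968) lies at chrX:24054716-24077971 and EIF2D (gene ID 1939) at chr1:206571292-206612463, with no overlapping protein-coding exon. EIF2A overlaps SERP1 on the other strand. Neither EIF2S3 nor EIF2D passed the test without control replicate 2, control replicate 3 or SP replicate 2, nor with equal totals or median-ratio scaling. EIF2S3 was also lost without control replicate 1 or SP replicate 3 and with quantile normalization (adjusted p = 0.0520), and EIF2D without SP replicate 1.

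eIF2B exchanges GDP for GTP on eIF2 and is the target of phosphorylated eIF2α. Of its 5 subunits, EIF2B1, the regulatory α subunit, was at 42.7, 42.0 and 41.0 FPKM in control and at 32.8, 32.0 and 34.6 in SP libraries. Every SP library lay below every control library by more than the range within either group. EIF2B1 fell by 0.33 on the log2 scale (SE 0.06, adjusted p = 0.00877 from limma), the lowest adjusted p among the 62 genes. EIF2B5, the catalytic ε subunit, was at 21.6, 22.2 and 22.6 in control and at 21.7, 22.4 and 22.2 in SP libraries. The 95% interval of its log2 fold change was −0.14 to 0.14. EIF2B2, EIF2B3 and EIF2B4 overlapped between the groups, with log2 fold changes of 0.09, −0.08 and −0.12. EIF2B1 (gene ID 1967) lies at chr12:123620406-123633766 and shares exon sequence with DDX55 and GTF2H3 on the other strand, and no source used here gives the strand handling of the counting. Its call was lost without SP replicate 2 (adjusted p = 0.0512).

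eIF3 is the largest initiation factor, a scaffold of 13 subunits. Of these, 3 fell (23.1%, against 12% of all genes tested) and none rose (8.57% of all did). A log2 fold change below 0 was found for 12 (58.7% of all genes tested had one), and the median was −0.14. With equal totals or median-ratio scaling 10 of the 13 were below 0, and with quantile normalization 11. Under these 3 scalings in turn, 5971, 6178 and 6818 of all 12127 genes tested were below 0. All SP libraries were below all control libraries for 8 of the 13 and for 26.1% of all genes tested. The 8 were EIF3B, EIF3E, EIF3F, EIF3G, EIF3H, EIF3I, EIF3K and EIF3L. Under every alternative the median stayed below 0, between −0.18 and −0.07. The 14 eIF3 genes summed to 2050, 1971 and 1940 FPKM in control and to 1756, 1746 and 1775 in SP libraries.

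The 3 subunits that fell all belong to the octamer core that is shared with the proteasome lid and the COP9 signalosome in architecture. EIF3K was at 426, 388 and 365 FPKM in control and at 311, 315 and 319 in SP libraries, and fell by 0.32 on the log2 scale (SE 0.07, adjusted p = 0.0180 from limma). EIF3E was at 291, 283 and 302 in control and at 262, 242 and 253 in SP libraries, and fell by 0.21 (SE 0.06, adjusted p = 0.0432). EIF3H was at 106, 105 and 108 in control and at 92.8, 88.7 and 95.8 in SP libraries, and fell by 0.20 (SE 0.06, adjusted p = 0.0416). In all 3 genes the highest SP library was below the lowest control library. EIF3K (gene ID 27335) lies at chr19:38619082-38636955 and EIF3E (gene ID 3646) overlaps no other protein-coding exon, whereas EIF3H (gene ID 8667) overlaps UTP23 on the other strand. None of these 3 genes passed the test without control replicate 2, SP replicate 1 or SP replicate 2, and only EIF3K did without control replicate 1, without SP replicate 3 and under the 3 other scalings. EIF3E and EIF3H were also lost without control replicate 3 and without the variance trend.

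The other octamer genes, EIF3A, EIF3C, EIF3F, EIF3L and EIF3M, were not called. EIF3A, the largest subunit, was at 38.0, 46.2 and 45.8 FPKM in control and at 46.9, 48.4 and 45.6 in SP libraries (log2 fold change 0.12, adjusted p = 0.337). EIF3A was the only subunit with a positive value in the deposited scaling, while EIF3C (0.018 and 0.0077) and EIF3D (0.048 and 0.037) were also positive with equal totals and median-ratio scaling. The median log2 fold change was −0.16 over the 8 octamer genes and −0.13 over the 5 others (EIF3B, EIF3D, EIF3G, EIF3I and EIF3J), none of which passed the test by limma. Control means spanned 12.9-fold, from 30.6 for EIF3F to 393 for EIF3K.

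EIF3CL is a near copy of EIF3C, and counting can split their reads. It was listed at 21.3 FPKM in control library 1, at 0.26 in SP library 1 and at 0 in the other 4. EIF3C and EIF3CL together were at 156, 143 and 143 in control and at 138, 132 and 138 in SP libraries, which did not overlap. EIF3C alone overlapped between the groups (135, 143 and 143 against 138, 132 and 138, adjusted p = 0.613), so its values are uncertain.

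**Figure D3:**
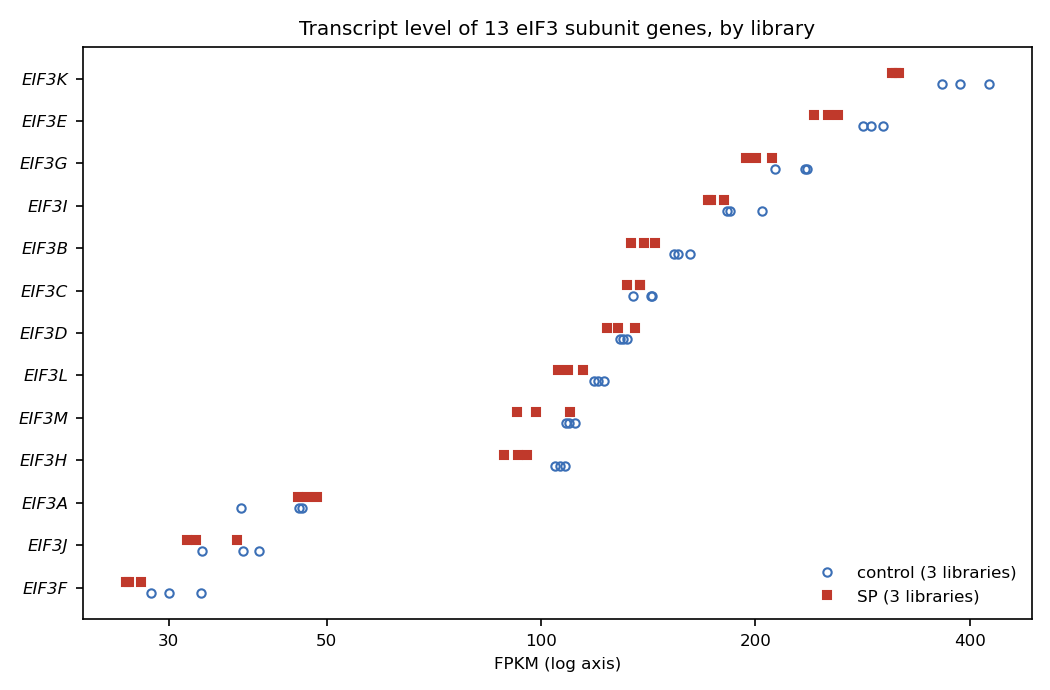
FPKM of the 13 eIF3 subunit genes tested, on a log axis, in the 3 control libraries (open circles) and the 3 SP libraries (filled squares), ordered by control mean. SP libraries lie left of all control libraries for 8 genes (26.1% of all genes tested), and only EIF3A has a higher mean with SP in these deposited values.

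eIF4F binds the cap through eIF4E, is held together by eIF4G and unwinds the leader with the helicase eIF4A. Of the 11 genes in this group, 1 fell and none rose, and the median log2 fold change of −0.04 turned positive with equal totals (0.03) and with median-ratio scaling (0.02). EIF4E was at 7.61, 7.99 and 7.09 FPKM in control and at 7.98, 7.23 and 7.03 in SP libraries. EIF4A1, the most abundant of the group, was at 736, 726 and 657 in control and at 705, 704 and 706 in SP libraries. EIF4G1 was at 94.0, 101 and 108 in control and at 107, 96.5 and 92.2 in SP libraries. All 3 core genes overlapped between the groups, and the 95% intervals of their log2 fold changes were −0.22 to 0.16, −0.16 to 0.15 and −0.22 to 0.14.

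EIF4E2, a cap-binding relative of eIF4E that represses translation in a complex with GIGYF2, was at 79.5, 69.6 and 67.7 FPKM in control and at 63.7, 59.6 and 56.7 in SP libraries. The groups did not overlap, and EIF4E2 fell by 0.26 on the log2 scale (SE 0.08, adjusted p = 0.0493 from limma), just inside the threshold. Among the fits that left out 1 library it passed only without control replicate 3, and it was lost under the 3 other scalings, with a pseudocount of 0.1, without a filter and without the variance trend. EIF4E3 was near the filter, at 0.70, 0.74 and 0.76 in control and at 0.43, 0.47 and 0.40 in SP libraries. Its difference of −0.27 on the log2(FPKM + 1) scale did not pass the test (adjusted p = 0.0571), and this scale understates the change of a low gene. With a pseudocount of 0.1 it was −0.65 (adjusted p = 0.0562). EIF4E3 passed in 2 of 13 alternatives, 1 of them the fit without a filter on low values (adjusted p = 0.0126).

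The remaining genes of the cap complex overlapped between the groups, apart from EIF4A3, a helicase of the exon junction complex (−0.12, adjusted p = 0.175). EIF4A2 was at 72.2, 62.9 and 62.0 FPKM in control and at 70.4, 61.4 and 67.8 in SP libraries. EIF4B, which stimulates the helicase and has the pyrimidine start shown above, was at 135, 144 and 166 in control and at 134, 136 and 133 in SP libraries. Control library 3 was the highest, and the difference of −0.13 (adjusted p = 0.265) was −0.05 without it. EIF4G2, EIF4G3 and EIF4H had log2 fold changes of −0.01, 0.19 and −0.11. EIF4A1 shares exons with the readthrough gene SENP3-EIF4A1, and EIF4E2 overlaps TIGD1 on the other strand.

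The eIF4E-binding proteins compete with eIF4G for eIF4E. None of these 4 genes passed the test by limma. EIF4EBP1 was at 243, 229 and 203 FPKM in control and at 202, 208 and 238 in SP libraries, with overlap (log2 fold change −0.06, 95% interval −0.26 to 0.15, adjusted p = 0.682). EIF4EBP2 was at 15.9, 15.3 and 15.6 in control and at 17.2, 15.7 and 15.1 in SP libraries (0.03, adjusted p = 0.800). EIF4EBP3 had a difference of −0.52, the second largest in size on the log2(FPKM + 1) scale and the third with a pseudocount of 0.1 (−0.59), and the largest standard error, 0.23. It was at 13.1, 8.11 and 6.75 in control and at 7.80, 4.46 and 5.95 in SP libraries, which overlapped (adjusted p = 0.143). With the replicate block its adjusted p was 0.0271. EIF4EBP3 shares exons with the readthrough gene ANKHD1-EIF4EBP3. EIF4ENIF1, which carries eIF4E into the nucleus, had a log2 fold change of −0.08.

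eIF5A, the only protein known to carry hypusine, helps the ribosome past difficult peptide bonds. EIF5A was at 969, 1024 and 914 FPKM in control and at 875, 889 and 883 in SP libraries. These did not overlap, but the difference of −0.13 did not pass the test (adjusted p = 0.194). Its relatives EIF5A2 and EIF5AL1 had FPKM below 9 and overlapped between the groups, and EIF5AL1 is a near copy of EIF5A that can share its reads.

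EIF6 encodes the factor that keeps the large subunit apart from the small one and takes part in its maturation. It was at 414, 405 and 321 FPKM in control and at 285, 283 and 289 in SP libraries. The SP libraries lay close together and below the lowest control library. EIF6 fell by 0.40 on the log2 scale (SE 0.10, adjusted p = 0.0239 from limma). Its call was kept without control replicate 3 and lost without each other library, with median-ratio scaling (adjusted p = 0.0520) and without a filter (0.0528). EIF6 (gene ID 3692) lies at chr20:35278911-35284985 and shares exon sequence with AL121753.1 on the same strand, so its reads cannot be fully assigned.

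The elongation factor eEF1A was the most abundant of all, and its paralogs differed in direction. EEF1A1 was at 2763, 2601 and 2637 FPKM in control and at 2801, 2826 and 2957 in SP libraries. These did not overlap, but the log2 fold change of 0.10 did not pass the test (adjusted p = 0.355). With quantile normalization it was 0.31 and passed (adjusted p = 0.00899), and with the 2 other scalings it was 0.16 and 0.15 and did not. EEF1A2, the paralog best known from muscle and neurons, was at 584, 515 and 468 in control and at 426, 389 and 326 in SP libraries. The groups did not overlap, and EEF1A2 fell by 0.46 on the log2 scale (SE 0.12, adjusted p = 0.0268 from limma). The call was lost without control replicate 1, control replicate 2, SP replicate 2 or SP replicate 3, with median-ratio scaling (adjusted p = 0.0505) and without a filter on low values (0.0614). Both together were at 3347, 3116 and 3105 in control and at 3228, 3215 and 3282 in SP libraries. EEF1A2 (gene ID 1917) lies at chr20:63488012-63499322 with no overlapping protein-coding exon, and EEF1A1 has many processed copies in the genome that can share its reads.

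The exchange factor eEF1B, which returns eEF1A to its GTP form, is encoded by EEF1B2, EEF1D and EEF1G. EEF1B2 was at 502, 481 and 438 FPKM in control and at 396, 389 and 416 in SP libraries, without overlap. It fell by 0.24 on the log2 scale (SE 0.07, adjusted p = 0.0468 from limma), and the adjusted p with the replicate block was 0.0578. The call was also lost with median-ratio scaling, quantile normalization, no filter or no variance trend, and without any library other than control replicate 3. EEF1G was at 1141, 1015 and 977 in control and at 895, 891 and 878 in SP libraries, also without overlap (−0.23, adjusted p = 0.0642). EEF1D was at 579, 494 and 412 in control and at 423, 401 and 413 in SP libraries, and control library 3 lay among the SP libraries (−0.25, adjusted p = 0.149). The 3 genes summed to 2222, 1991 and 1827 in control and to 1715, 1681 and 1707 in SP libraries. For all 3 the value in control library 1 was the highest. Without control replicate 3, 4 of the 6 eEF1 genes fell, and without control replicate 1, control replicate 2, SP replicate 2 or SP replicate 3 none did. EEF1E1, a scaffold of the tRNA synthetase complex, had a log2 fold change of 0.17 and overlapped. EEF1B2 (gene ID 1933) lies at chr2:206159585-206162928 and overlaps NDUFS1 on the other strand.

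eEF2, the translocase, and its enzymes were not called. EEF2 was at 918, 974 and 1000.4 FPKM in control and at 964, 1026 and 1064 in SP libraries. EEF2K, the kinase that inactivates eEF2, was at 3.76, 3.95 and 4.18 in control and at 3.59, 3.38 and 3.81 in SP libraries. Both overlapped between the groups, with log2 fold changes of 0.08 (95% interval −0.09 to 0.24) and −0.11 (−0.30 to 0.08). EEF2KMT, a methyltransferase of eEF2, had 0.04.

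Among the 5 methyltransferases that modify eEF1A, EEF1AKMT4 had the largest difference of the 62 genes on the log2(FPKM + 1) scale. With a pseudocount of 0.1 it was 0.61, smaller in size than that of EIF4E3. It was at 18.8, 17.3 and 16.7 FPKM in control and at 21.7, 26.7 and 33.6 in SP libraries. Every SP library was above every control library, with a wide spread among the SP libraries. The log2 fold change was 0.59 (SE 0.14, adjusted p = 0.0214 from limma), and the mean was 55.2% higher. EEF1AKMT4 (gene ID 110599564) lies at chr3:184249650-184259585, shares exons with the readthrough gene EEF1AKMT4-ECE2 and overlaps CAMK2N2 on the other strand, so its reads cannot be fully assigned. The call was lost without control replicate 2 (adjusted p = 0.0676) or SP replicate 2 (adjusted p = 0.0709) and without a filter (adjusted p = 0.0541). EEF1AKMT2 and EEF1AKMT3 were below control in every SP library but not called (−0.19 and −0.23), and EEF1AKMT1 and EEF1AKNMT overlapped. The median of −0.05 over the 5 genes turned positive with equal totals (0.0117) and with median-ratio scaling (0.00209).

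Ratios of related genes within a library do not depend on a scaling by 1 factor per library. Quantile normalization can change them. Over 12 such ratios, the exact two-sided permutation test cannot give a p below 0.1 with 3 libraries against 3, and the smallest value adjusted over the 12 was 0.3. EEF1A2 was 0.211, 0.198 and 0.177 of EEF1A1 in control and 0.152, 0.138 and 0.110 in SP libraries (log2 difference −0.56, exact permutation p = 0.1). EIF4E3 to EIF4E differed by −0.73, EIF4E2 to EIF4E by −0.24 and EEF2K to EEF2 by −0.22. These 4 ratios did not overlap between the groups, and the other 8 did. EIF4EBP1 was 29.7 ± 1.91 times EIF4E in control and 29.3 ± 4.31 times in SP libraries (SD, n = 3, exact permutation p = 1).

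Genes around these factors gave small counts as well, set beside 8.57% of all genes tested that rose and 12% that fell. Of 6 eIF2α kinases and phosphatase subunits, 2 rose and none fell. PPP1R15A (GADD34), which directs the phosphatase to eIF2α, rose by 0.47 on the log2 scale (adjusted p = 0.0286 from limma) and EIF2AK3 (PERK), the kinase of the endoplasmic reticulum, by 0.45 (adjusted p = 0.0116). Of 14 genes of mTORC1 and MNK control, MKNK2, a kinase of eIF4E, rose (0.33, adjusted p = 0.0133) and none fell. Of 9 enzymes that make hypusine or diphthamide, DHPS, which modifies eIF5A, rose (0.30, adjusted p = 0.0295). Of 10 poly(A)-binding and accessory factors, CTIF, a partner of a cap-binding complex, rose (0.49, adjusted p = 0.0138), while PABPC4 (−0.38, adjusted p = 0.00793), DENR (−0.29, adjusted p = 0.0115) and PABPC1 (−0.23, adjusted p = 0.0275) fell. Of 5 termination genes, GSPT2 fell (−0.28, adjusted p = 0.0412), and of 9 mitochondrial factors, TUFM, the mitochondrial counterpart of eEF1A, fell (−0.26, adjusted p = 0.0167).

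Ribosomal protein genes were lower with SP in larger numbers. Of 84 tested, 29 fell (34.5%, against 12% of all genes tested) and none rose, 82 had a log2 fold change below 0 (97.6% against 58.7%), and the median was −0.26. With quantile normalization the median was −0.13 and 76 were below 0, as were 6818 of all 12127 genes tested. The median transcript length of the 84 genes was 1010.5 bases. Of all genes tested with a transcript under 1500 bases, 20.8% fell. The part of length in these values was not tested. Ribosomal protein genes made up 26.1%, 25.1% and 24.3% of the FPKM total in control and 22.3%, 21.8% and 21.6% in SP libraries. Since FPKM is a share of a total, their part in the values of the factors was not tested. The 64 factors made up 1.71% ± 0.04 in control and 1.69% ± 0.02 in SP libraries (SD, n = 3). Of 9 factors with TOP mRNAs from a fixed list, EEF1B2, EIF3E and EIF3H fell, none rose, and the median was −0.20. Of the 11 with a pyrimidine start in RefSeq, EIF2D, EIF2S3 and EIF3K fell, with a median of −0.13. The 38 promoters without it held 2 genes that rose and 4 that fell, with a median of −0.08. Of all genes tested, 8.57% rose and 12% fell. Only EEF1A1, EEF2, EIF3F and EIF4B of the fixed list were among the 11, so the 38 may include genes with known TOP mRNAs.

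**Figure D4:**
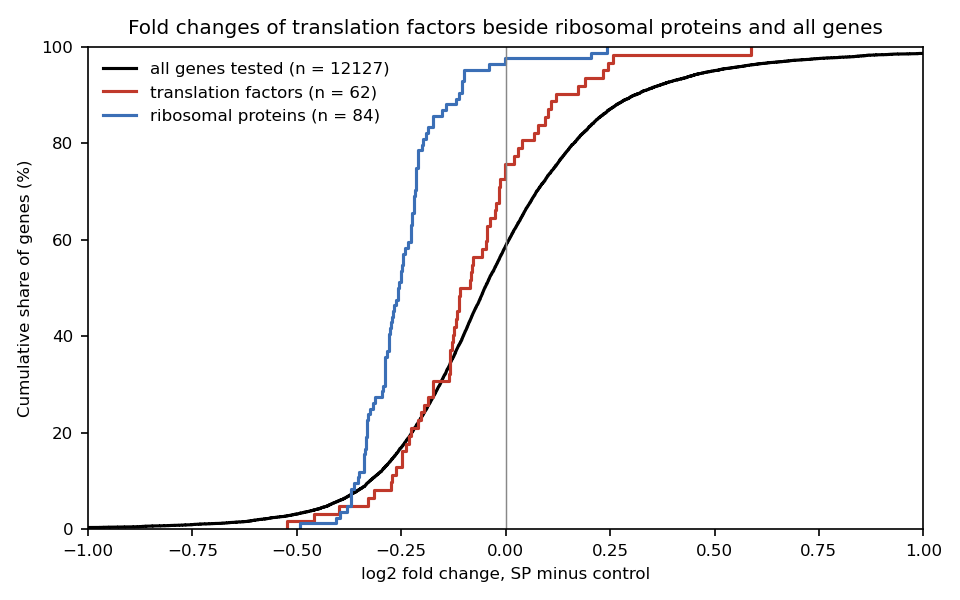
Cumulative share (%) of genes by log2 fold change, SP minus control, for 12127 genes tested (black), 62 translation factors (red) and 84 ribosomal protein genes (blue). Genes beyond −1 and 1 are outside the axis. The factor curve crosses the middle at −0.10, between all genes (−0.05) and ribosomal protein genes (−0.26).

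Fold changes also differed by transcript length. Among factors whose GENCODE 29 transcript was shorter than 1500 bases, 3 of 11 fell, with a median log2 fold change of −0.17. From 1500 to 3000 bases, 6 of 27 fell (median −0.12), and from 3000 bases on, 1 of 23 fell (median −0.08). Over all genes tested, 20.8%, 14.9% and 8.01% of the same classes fell, with medians of −0.14, −0.08 and −0.01. Pearson's r of fold change with log length was 0.21 over 61 factors and 0.13 over 11831 genes, given as a description across genes of the same 6 libraries. The part of length in the values of single factors was not tested.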

How the data were processed

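Paired-end reads were obtained for 3 control and 3 SP libraries of HK-2 cells that overexpress NK-1R. According to the methods of the study, the authors removed poor reads, used HISAT for alignment to GRCh38.p13, RSEM for quantification and DESeq2 for their own comparison. Bowtie2, HISAT2, hg38 and GRCh38.p13 stand in the submitters' processing notes, with no version given. The deposited values are FPKM for 16250 genes, which correct for library total and transcript length, and reads per library are unknown, so neither counting intervals nor count tests were possible.

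The 12127 genes with at least 0.5 FPKM in at least 3 libraries were put on the scale log2(FPKM + 1) and tested by limma 3.58.1 (R 4.3.3), with a variance trend and Benjamini-Hochberg adjustment over all of them. Calls needed an adjusted p under 0.05 and had no limit on the fold change. Fold changes are on the log2(FPKM + 1) scale, and the script was tested on simulated data. Members, complexes and lists were chosen with earlier results of these data known. Values in every library are given for the called genes, the most abundant gene of each complex and a fixed set of core factors. Outside the rule, up to 4 called genes per list are named. Values of EIF1AY are not reported here.

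Same-numbered libraries of the 2 groups deviated together (r = 0.17, 0.22 and 0.17). All other pairs had a negative r, which is in part forced, since deviations from a group mean cancel within the group. Because of the positive values, the replicate number was used as a block in an alternative. No source used here says what the number stands for. Other alternatives were a pseudocount of 0.1, no filter, a filter of 1 FPKM in every library, 3 scalings between libraries, no variance trend and each library left out. Gene positions and overlaps are from GENCODE 29 on GRCh38, and EEF1AKNMT was not matched there. Promoters are from RefSeq.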

Additional observations from a re-analysis of the deposited data

How the results depend on the processing

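The counts of called factors depended on the processing (2 rose and 10 fell as reported). Risen genes numbered 0 without a filter on low values, 1 without the variance trend, 4 with median-ratio scaling and 4 with quantile normalization. Fallen genes numbered 6 with equal FPKM totals, 2 with median-ratio scaling and 6 with quantile normalization. Over all genes tested, 1039 rose and 1457 fell as reported. Under these 3 scalings in turn, 1044 rose and 750 fell, 1281 and 912, and 1181 and 1301. Leaving out 1 library gave 0 to 3 risen and 0 to 9 fallen factors. In these fits 7.73% to 20.8% of all genes tested were called. The median over the factors was −0.10 and became −0.0355 with equal totals and −0.0455 with median-ratio scaling. That over all genes tested was −0.05 and became 0.00386 and −0.00461. No factor passed both thresholds by limma in any of the 14 alternatives. The cause of these shifts was not tested.

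With the replicate block, 2 factors rose and 10 fell. EIF1 and EEF1B2 were lost and EIF2A and EIF4EBP3 gained, and no other call changed. The paired values could not pass the test for any ratio, because the pairs were too few, so this test decides nothing. EEF1A2 to EEF1A1 was lower with SP in every pair. Its exact paired permutation p was 0.25, the smallest value possible with these pairs.

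Small log2 differences changed sign, all without a call. With equal totals, median-ratio scaling and quantile normalization in turn, EIF2B5 had 0.0584, 0.0488 and 0.0294, EIF2S2 had 0.0468, 0.0367 and 0.0332, EIF4A1 had 0.0612, 0.0510 and 0.0811, and EIF4G1 had 0.0253, 0.0153 and 0.00521. EIF4E had 0.0296 and 0.0205 with the first 2 of these, and EIF4EBP1 had 0.00580 with the first.

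Leaving out 1 library gave a range of −0.0169 to 0.0124 for EIF2B5, −0.0637 to 0.0211 for EIF2S2, −0.0529 to 0.0289 for EIF4A1, −0.0219 to 0.0885 for EIF4A2, −0.0737 to 0.00993 for EIF4E, −0.0952 to 0.0111 for EIF4G1, −0.129 to 0.000906 for EIF4EBP1 and −0.0220 to 0.0682 for EIF4EBP2. The log2 ratio ranged from −0.0296 to 0.0762 for EIF4A2 to EIF4A1, from −0.0111 to 0.0621 for EIF4G2 to EIF4G1, from −0.138 to 0.0723 for EIF4EBP1 to EIF4E and from −0.202 to 0.0122 for EIF4EBP1 to EIF4EBP2. The number of reads behind each FPKM value is unknown, so the depth at which a small difference could be seen is unknown as well.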
